A study of Mus musculus with 2 samples.

Results

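Regions of open chromatin that lie between genes but close to a gene start were examined in mouse blood monocytes. Overlapping peaks of the conservative list, the stricter list that the authors made from both replicates, were merged on chromosomes 1 to 19. A merged region was kept when its summit lay outside every protein-coding gene body, when the whole region lay over 1 kb from every protein-coding transcription start, and when its summit lay at most 10 kb from the nearest start. This rule kept 2337 of 27898 regions, or 8.38%. The assay was ATAC-seq, in which a transposase cuts and tags DNA that nucleosomes leave bare. The cells were peripheral blood monocytes of the C57BL/6J strain, taken at 5 to 6 weeks of age, with 50000 cells per library. There was 1 group of 2 biological replicates and no control group or treatment.

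Both replicates carry the same donor identifier in the labels. Whether different animals were used is not stated, and their spread may be technical only. Without read counts the depth is unknown, and no counting interval is given. With 2 replicates of 1 group there is no comparison of conditions to test, and an exact permutation test over 2 pairs cannot go below p = 0.5. Values are therefore given for each replicate, with the SD over both where a mean is printed. Replicate folds at a region are the highest fold of the overlapping region in that replicate's own looser (pseudoreplicated) list. Replicate counts and shares come from its own thresholded list, which is stricter and smaller.

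Sequence a few kilobases from a start, outside the promoter itself, is where many gene-proximal enhancers and some insulator sites lie. An enhancer is a stretch of DNA whose bound transcription factors raise transcription of a gene on the same chromosome. In monocytes and macrophages, PU.1 (encoded by Spi1) is the lineage factor that opens many such sites, often together with C/EBP, AP-1, RUNX and IRF family members. CTCF, a zinc finger protein that stops cohesin loops, marks many insulator sites. The gene nearest to an open region need not be the gene it acts on, and openness by itself does not show enhancer activity.

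The label of the cells was checked on promoters. Of 20 monocyte identity genes, 17 had an open promoter in the conservative list, among them Csf1r, Ly6c2, Lyz2, Cd14 and Spi1. Among defining markers of other blood cells, 1 of 5 T-cell genes (Cd3d), 1 of 5 B-cell genes (Pax5), 1 of 4 NK-cell genes (Prf1), 0 of 5 neutrophil genes and 1 of 4 erythroid and platelet genes (Klf1) had one. The looser lists of the replicates held 18 and 17 of the 20 monocyte promoters. They held more of some other lineages, with 3 and 2 of the 5 B-cell promoters and 2 of the 4 NK-cell promoters in each, and 1 T-cell, 0 neutrophil and 1 erythroid and platelet promoter in each. The part of such cells in the results below was not tested. Gata1, an erythroid marker on the X chromosome, lay outside the chromosomes used.

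The DNA at the summits of 12 regions is shown first, because these regions lie beside genes that the results turn on and hold the motif matches counted across all regions. Each run is 199 bases of the plus strand of GRCm38.p6, the RefSeq sequence of the mm10 assembly, with the summit at its centre. Capitals mark matches, on either strand, to PU.1 (GAGGAAGT), C/EBP (TTGCNNAA), AP-1 (TGANTCA), RUNX (TGTGGTT) or KLF (GGGTGTGG), or to 4 longer patterns with free bases. These are CTCF (CCA, AG and GGC with 2 free bases between them), IRF (a pair of GAAA runs 2 bases apart), the ETS-IRF composite (GGAA and GAAA 2 bases apart) and NF-kB (GGGA and CC 4 bases apart).
Il1b, chr2:129373404-129373602: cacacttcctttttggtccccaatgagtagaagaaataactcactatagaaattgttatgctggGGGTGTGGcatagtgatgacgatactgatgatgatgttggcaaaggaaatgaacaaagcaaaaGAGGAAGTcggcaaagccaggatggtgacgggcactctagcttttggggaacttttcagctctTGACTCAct
Lyz1, chr10:117301802-117302000: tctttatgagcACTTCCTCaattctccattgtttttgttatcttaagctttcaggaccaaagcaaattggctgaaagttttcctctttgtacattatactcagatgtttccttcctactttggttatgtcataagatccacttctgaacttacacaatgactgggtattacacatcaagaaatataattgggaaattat
Klf2, chr8:72317721-72317919: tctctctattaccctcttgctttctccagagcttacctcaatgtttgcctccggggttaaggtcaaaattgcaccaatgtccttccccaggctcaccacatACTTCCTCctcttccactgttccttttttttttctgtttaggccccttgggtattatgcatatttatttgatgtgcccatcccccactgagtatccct
Ccl9, chr11:83572348-83572546: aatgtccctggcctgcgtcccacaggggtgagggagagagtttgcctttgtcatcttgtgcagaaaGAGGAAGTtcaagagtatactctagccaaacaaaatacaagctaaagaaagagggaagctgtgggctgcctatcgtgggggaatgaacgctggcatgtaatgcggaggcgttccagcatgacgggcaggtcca
Mcl1, chr3:95650669-95650867: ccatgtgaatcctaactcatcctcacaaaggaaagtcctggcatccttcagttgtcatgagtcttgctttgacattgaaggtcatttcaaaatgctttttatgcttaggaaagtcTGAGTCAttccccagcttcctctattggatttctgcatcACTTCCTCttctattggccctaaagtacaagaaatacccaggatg
Junb, chr8:84982782-84982980: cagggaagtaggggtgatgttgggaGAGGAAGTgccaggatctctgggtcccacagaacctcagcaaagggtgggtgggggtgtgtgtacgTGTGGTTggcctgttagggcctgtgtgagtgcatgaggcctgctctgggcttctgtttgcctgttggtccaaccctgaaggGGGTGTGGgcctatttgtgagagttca
Hmox1, chr8:75083919-75084117: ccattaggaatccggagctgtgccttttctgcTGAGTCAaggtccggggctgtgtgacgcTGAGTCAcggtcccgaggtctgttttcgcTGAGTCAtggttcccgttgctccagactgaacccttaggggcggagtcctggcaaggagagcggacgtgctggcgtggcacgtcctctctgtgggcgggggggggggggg
Zfp36, chr7:28383054-28383252: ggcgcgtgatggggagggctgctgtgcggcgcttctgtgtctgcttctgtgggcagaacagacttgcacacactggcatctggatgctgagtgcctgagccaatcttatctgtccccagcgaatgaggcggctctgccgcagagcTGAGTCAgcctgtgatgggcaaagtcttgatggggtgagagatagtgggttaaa
Ier5, chr1:155091399-155091597: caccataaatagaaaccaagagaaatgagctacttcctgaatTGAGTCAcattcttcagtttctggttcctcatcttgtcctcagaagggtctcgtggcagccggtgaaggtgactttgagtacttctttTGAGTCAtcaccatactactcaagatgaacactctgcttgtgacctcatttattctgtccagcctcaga
Nfkbia, chr12:55488742-55488940: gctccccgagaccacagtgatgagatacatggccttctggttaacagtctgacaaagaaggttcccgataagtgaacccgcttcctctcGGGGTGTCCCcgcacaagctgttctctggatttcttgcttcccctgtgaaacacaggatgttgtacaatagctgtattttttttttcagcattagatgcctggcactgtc
Tmem167b, chr3:108554681-108554879: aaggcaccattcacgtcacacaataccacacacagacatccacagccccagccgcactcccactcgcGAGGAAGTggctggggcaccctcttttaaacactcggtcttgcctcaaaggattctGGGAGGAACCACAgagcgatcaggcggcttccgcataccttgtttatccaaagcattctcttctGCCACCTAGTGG
Btbd10, chr7:113377981-113378179: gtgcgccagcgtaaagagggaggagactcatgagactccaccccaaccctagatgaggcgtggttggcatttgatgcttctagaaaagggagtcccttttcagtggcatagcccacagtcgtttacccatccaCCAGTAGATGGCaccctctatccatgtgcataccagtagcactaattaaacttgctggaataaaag

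PU.1 letters occur in 7 of these 12 windows, AP-1 letters in 5 and CTCF letters in 2. The windows were picked to show matches, so these counts are no estimate for all regions. At the region 2.36 kb upstream of Il1b, the gene for the inflammatory cytokine interleukin 1 beta, the PU.1 match was centred 31 bp from the summit, with a KLF match at -31 bp and an AP-1 match at 94 bp. At the region 9.6 kb upstream of Hmox1, the heme oxygenase gene, 3 AP-1 matches stood at -64, -36 and -7 bp. The factors NRF2 and BACH1, which control heme and oxidative stress genes, recognise a longer element that contains the AP-1 letters. Beside Ier5, an immediate-early gene, 2 AP-1 matches stood at -54 and 34 bp. The NF-kB match 3.81 kb past the start of Nfkbia, which encodes the NF-kB inhibitor IκBα, lay 5 bp from the summit (-5 bp). Near Tmem167b and Btbd10, which hold some of the strongest regions, the CTCF letters were centred 93 and 39 bp from the summit. A match describes letters only and does not show that a factor was bound.

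The regions were narrow and of moderate strength. Their median width was 358 bp (quartiles 275 and 488 bp), and 17.1% of them joined more than 1 peak. The median fold enrichment, which is the authors' own ratio of signal over background at a peak, was 5.74 (quartiles 4.64 and 7.19). In the replicates' own looser lists, the same class of region had a median fold of 4.88 in replicate 1 and 4.72 in replicate 2 (4.80 ± 0.11, SD, n = 2). Promoter regions reached 6.37 and 6.22 there, so intergenic regions near starts stood at 0.765 of the promoter median in replicate 1 and 0.759 in replicate 2. This gap was larger than the spread between replicates. A merged region keeps its highest fold, and in the conservative list 49.9% of promoter regions joined more than 1 peak. The part of merging in the gap was not tested. Intron regions, at 4.88 and 4.68, were within the spread between replicates of the intergenic regions near starts. Intergenic regions 10 to 100 kb from a start were slightly stronger, at 5.18 and 5.02, and in each replicate the regions near starts stood at 0.941 of that level.

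Most of these regions were found in both replicates' looser lists, but not in both strict ones. In the looser lists, 1990 regions (85.2%) were overlapped in both replicates, 129 only in replicate 1, 157 only in replicate 2 and 61 in neither. Over all 27898 regions the share in both was 91%, and at promoters it was 96.3%. In the thresholded lists, 904 regions (38.7%) were found in both, against 50.3% of all regions, and 920 in neither. This share was higher where the fold in the conservative list was higher, and both come from the same libraries. Of the 585 regions with the highest fold, 82.7% were in both thresholded lists, and of the next 3 groups of 584 in order of fold 41.95%, 22.4% and 7.53% were.

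Agreement of the folds between replicates is a description only. The conservative list was thresholded by IDR (irreproducible discovery rate), which keeps peaks whose ranks agree between replicates, so agreement is built into the choice of regions. Over these 1990 regions the log2 folds had a Pearson correlation of 0.849 and a Spearman correlation of 0.834, as a description across regions of 2 libraries. The median log2 difference, replicate 2 minus replicate 1, was -0.04 with an SD of 0.24 over regions. Regions missing from a replicate are left out, which narrows the spread further. That no region (0 of 1990) differed by more than 1 log2 unit follows at least in part from both selections.

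**Figure D1:**
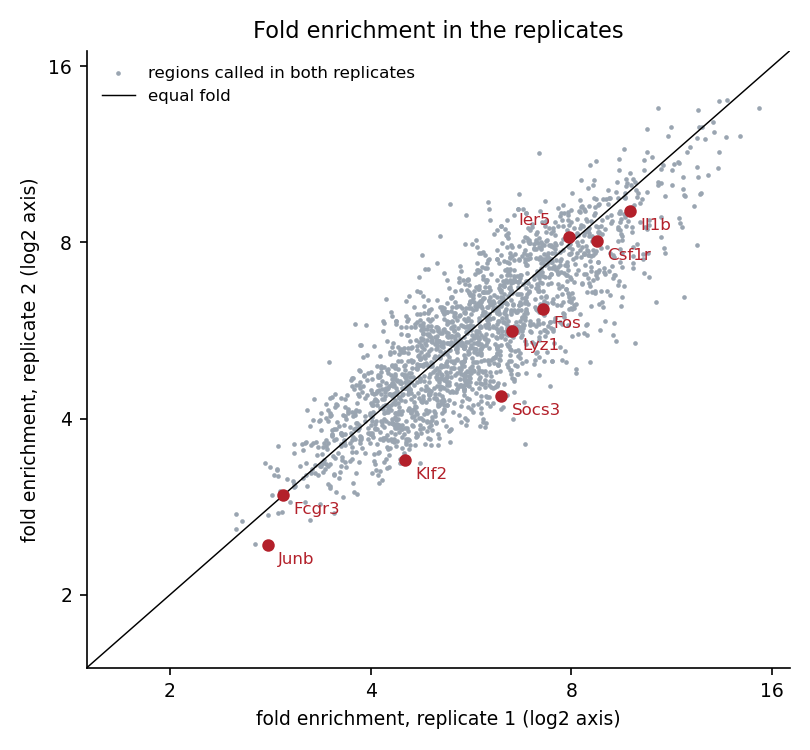
Fold enrichment of the 1990 intergenic regions near starts that were called in both replicates, replicate 1 against replicate 2, on log2 axes. Grey points are regions, red points are the strongest region of a named gene, and the line marks equal fold. Il1b, at 9.78 and 9.05, lies near the top and Junb, at 2.80 and 2.43, near the bottom.

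Within the window, density did not run steadily up or down with distance, but was highest at 5 to 7 kb. Density is given as regions per Mb of intergenic sequence at that distance, because there is less such sequence farther out. It ranged from 14.6 per Mb at 4 to 5 kb to 19 per Mb at 5 to 6 kb. At 1 to 3 kb it was 16.1 per Mb and at 8 to 10 kb 15.6 per Mb, a ratio of 1.03, while the thresholded lists of the replicates gave ratios of 0.926 and 0.941. The sign of this small difference thus depended on the list. A region that reached within 1 kb of a start was excluded by the rule, so the innermost bin is short of wide regions. From 5 to 7 kb both replicates were at their highest, at 9.88 and 10.9 per Mb for 5 to 6 kb and 10.1 and 11.0 per Mb for 6 to 7 kb. At 4 to 5 kb both were at 6.88 per Mb and at 1 to 2 kb they were at 7.39 and 7.51 per Mb. Both bins differed from 5 to 7 kb by more than the spread between replicates. That spread is over 2 libraries and does not measure how density varies between bins, and these bins were picked for their values.

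Density was lower farther out. It was 16.6 per Mb over 1 to 10 kb, 15.0 per Mb at 10 to 20 kb, 11.6 per Mb at 20 to 50 kb and 6.89 per Mb at 50 to 100 kb. In the replicates it was 8.60 ± 0.005 per Mb (SD, n = 2) over 1 to 10 kb, 8.51 ± 0.19 at 10 to 20 kb, 6.18 ± 0.078 at 20 to 50 kb and 3.69 ± 0.08 at 50 to 100 kb. The nearest of these bins did not differ beyond the replicates' spread, and the outer ones did.

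Strength did move with distance. The median fold in the replicates' own lists was 4.55 and 4.42 at 1 to 3 kb, 4.65 and 4.49 at 3 to 5 kb, 5.25 and 5.03 at 5 to 7 kb, and 4.99 and 4.96 at 7 to 10 kb. Both replicates were higher in each bin beyond 5 kb than in either bin below it. Width moved along with strength, from a median of 327 bp at 1 to 3 kb to 383 bp at 7 to 10 kb. The limit at 1 kb removes wide regions near it, and its part in this difference was not tested.

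**Figure D2:**
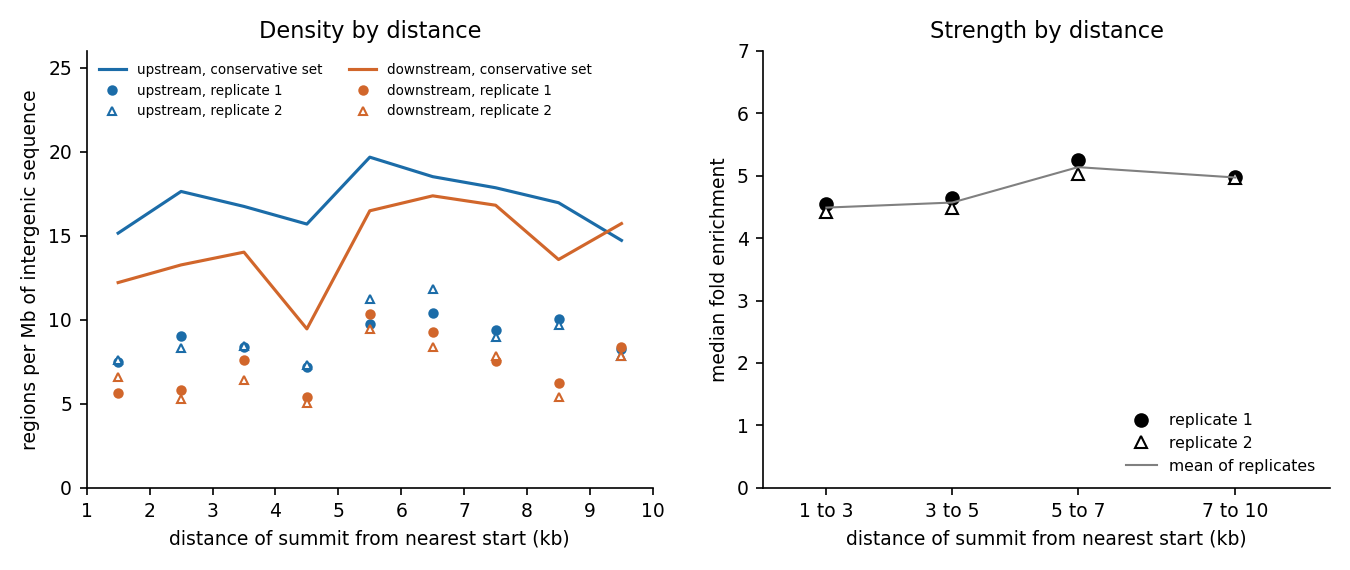
Left, regions per Mb of intergenic sequence in 1 kb bins of distance from the nearest start, upstream and downstream, with lines for the conservative list and points for the thresholded list of each replicate. Right, median fold of the regions in the looser list of each replicate in 4 ranges of distance, where both replicates lie between 4.42 and 4.65 below 5 kb and between 4.96 and 5.25 beyond it.

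Most of the regions were upstream of their nearest start, as is most intergenic sequence at this distance. Of all regions, 1954 (83.6%) lay upstream, against 81.5% of the available sequence. Density was 16.97 per Mb upstream and 14.7 per Mb downstream, past the far end of genes that end within 10 kb of any of their starts. These include longer genes with a start inside the gene, such as Shf. In the replicates it was 8.82 and 8.95 per Mb upstream against 7.63 and 7.09 per Mb downstream (8.88 ± 0.092 and 7.36 ± 0.38, SD, n = 2). Both upstream values were above both downstream values. Sequence between the starts of a divergent gene pair held 18.7 regions per Mb (10.04 and 10.1 in the replicates), sequence between genes in tandem 15.1 per Mb (7.63 and 7.69), and sequence between convergent genes 17.9 per Mb (9.43 and 8.83). Tandem sequence was the lowest in each replicate.

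The state of the nearest promoter went with a large difference in density. Beside the 9892 genes with an open promoter in the conservative list, intergenic sequence held 29.6 regions per Mb. Beside the 10915 genes without one it held 8.79 per Mb. The replicates gave 15.5 per Mb each against 4.51 per Mb each. Of the 2337 regions, 1559 (66.7%) had an open promoter as their nearest one. The 778 regions beside a gene with no open promoter were somewhat stronger, with a median fold of 6.17 against 5.54. For 493 of the 680 genes with a region and no open promoter, neither replicate's looser list held a promoter peak either.

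The sequence at the summits was less CpG rich than at promoters and held fewer repeats than the flanks. The median GC share within 100 bp of the summit was 50.7%, against 46.8% in windows of the same size 500 bp to each side. The median CpG ratio, observed over expected CpG, was 0.266, against 0.778 at promoters and 0.199 in the flanks. It was 0.2645 at 10 to 100 kb and 0.223 in introns. Of the summit windows, 3.98% were mostly repeat sequence, against 24.6% of flanking windows. Over all open regions this share was lower, at 2.28%, with 0.456% at promoters and 0.78% in exons. It was 3.475% in introns, 3.22% at 10 to 100 kb and 3.90% beyond 100 kb. A CpG ratio of 0.6 or more was found at 269 regions (11.5%). Of these, 201 had no start of a long noncoding RNA, RefSeq mRNA or other annotated transcript within 1 kb.

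PU.1 and CTCF letters were the most concentrated at summits of the motifs with at least 50 matched regions. PU.1 letters occurred within 100 bp of the summit in 217 regions (9.29%) and in 1.28% of flanking windows, 7.23 times as often. In the replicates' own lists these shares were 10.5% and 11.0%, or 6.24 and 7.24 times the flanks. Of all open regions 8.98% held them, with 3.998% of promoter regions and 12.7% of intron regions. In the conservative list the regions near starts therefore held PU.1 letters more often than promoters and less often than introns or the 11.5% of regions 10 to 100 kb away.

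CTCF letters occurred in 423 regions (18.1%), against 2.38% of flanking windows, 7.62 times as often. The replicates' own thresholded lists gave lower shares, 14.4% and 13.8%, or 4.86 and 6.11 times the flanks. The share over all regions was 10.7%. By class it was 4.07% at promoters, 13.3% in introns, 17.95% in exons, 16.03% at 10 to 100 kb and 6.51% beyond 100 kb. Regions downstream of a gene held CTCF letters in 23.5% of cases and upstream regions in 17.04%.

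The remaining myeloid motifs were enriched less. The ETS-IRF composite, a site that PU.1 and IRF8 can share, was found in 5.73% of regions against 1.93% of flanks (6.59% and 6.5% in the replicates). C/EBP letters were found in 12.7% against 6.91%, AP-1 letters in 9.84% against 5.76%, and RUNX letters in 8.82% against 6.25%. Their shares over all open regions were 4.34%, 10.8%, 8.53% and 7.23%. KLF letters stood at 4.07% against 1.97% of flanks, with 4.08% of all regions. NF-kB letters, a loose pattern, stood at 13.7% against 8.79% of flanks, with 14.7% of all regions. IRF letters were close to their flanks, at 2.95% against 2.53%, with 3.06% of all regions. GATA letters (AGATAA), bound by erythroid GATA1 among others, were found less often than in flanks, in 6.16% against 9.14% (5.52% and 6.5% in the replicates). Their share over all open regions was lower, at 5.02%, with 2.69% at promoters. Flanks had a lower GC share than summits, and the part of base composition in the GATA difference was not tested.

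**Figure D3:**
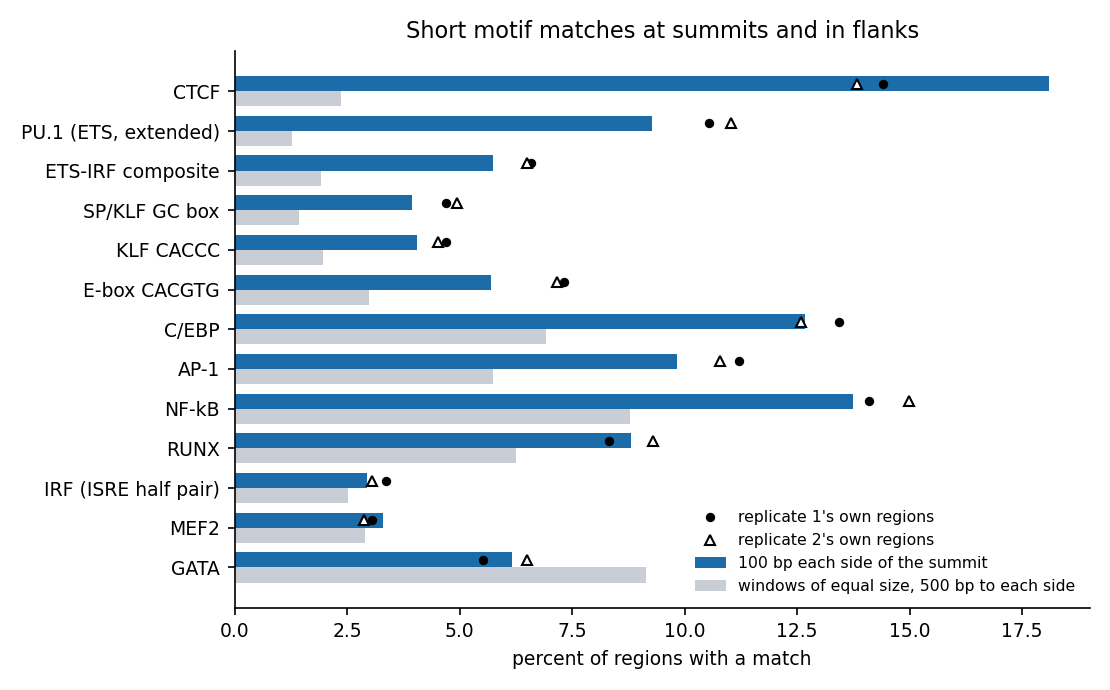
Percent of intergenic regions near starts with a motif match within 100 bp of the summit (blue bars) and of flanking windows of the same size (grey bars), for motifs matched in at least 50 regions, with points for the thresholded list of each replicate. PU.1 stands at 9.29% against 1.28%, CTCF at 18.1% against 2.38%, and GATA alone is lower at summits than in flanks.

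CTCF letters were held by 11 of the 217 regions with PU.1 letters, against 423 (18.1%) of all 2337 regions. This difference was not tested. Each motif was held by a minority of regions, so most regions with PU.1 letters would lack CTCF letters in any case. The groups below were formed after the motif shares had been seen and are described only. The 206 regions with PU.1 but not CTCF letters had a median width of 381 bp, and 49.5% were in both replicates' thresholded lists. The 412 regions with CTCF but not PU.1 letters were narrower, at 282 bp, and 27.7% were in both. Median folds were close, at 5.95 and 5.67. An open promoter was nearest for 74.3% of the PU.1 regions and 63.8% of the CTCF regions. A gene of the 12 monocyte and inflammatory lists described below was nearest for 18 (8.74%) of the first group and 13 (3.16%) of the second, against 137 (5.86%) of all regions.

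Of 20807 protein-coding genes, 1967 (9.45%) were the nearest gene of at least 1 region. In the replicates' own thresholded lists the shares were 5.3% and 5.33%. Among genes with an open promoter the share was 13%. Most had a single region (1663 genes), while 248 had 2, 46 had 3 and 10 had 4. Listed genes were read against these shares, and the lists below were chosen with results of these data known, so their counts are descriptions.

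Immediate-early and feedback genes, which respond within minutes to stimulation or restrain inflammatory signalling, had a region at 14 of 27 genes (51.9%; 11 in each replicate). Their surroundings held 89.8 regions per Mb, against 16.6 per Mb over all genes and 29.6 per Mb beside genes with an open promoter. Ier2 had 4 regions, and Dusp6, Socs3, Gadd45b and Mcl1 had 3 each. All but 1 of the 27 had an open promoter, and of those 26, 13 (50%) had a region, so the share stayed above the 13% of all genes with open promoters. AP-1, EGR and ATF factors had a region at 8 of 19 (5 in each replicate), led by Egr1 with 3 and by Fos and Fosb with 2 each.

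Myeloid identity and effector genes were also above the 9.45% of all genes. Among their genes with an open promoter, the share with a region ran by list from 25% (MHC class II) to 47.6% (Fc, lectin and phagocytic receptors). This share was 13% over all genes with an open promoter. Fc, lectin and phagocytic receptors had a region at 13 of 27 genes (9 and 10 in the replicates), with 2 each at Clec4d, Trem1 and Fcgr3. Cytokines and chemokines had one at 12 of 30 (7 in each replicate), lysosome and antimicrobial genes at 10 of 26 (7 and 8), and monocyte identity genes at 10 of 20 (8 and 7). Myeloid transcription factors had one at 10 of 33 (7 and 8). Migration receptors had one at 6 of 16 (5 in each), led by Selplg, which encodes a selectin ligand, with 3 regions. The MHC class II list had one at 5 of 14 (4 in each), where Ctss, the protease that trims the invariant chain, had 4 regions and H2-Aa had 3. This list had the highest density of the 21, at 95.0 per Mb in the conservative list, but 37.99 and 56.99 per Mb in the replicates against 56.5 and 53.2 per Mb for the immediate-early list.

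Other lists had lower shares, though in the conservative list still above the 9.45% of all genes. Innate sensors had a region at 7 of 25 genes (28%; 2 and 3 in the replicates), little below the 30.3% of myeloid transcription factors. Interferon-stimulated genes had one at 6 of 28 (4 in each replicate). NF-kB factors and inhibitors had one at 3 of 14 (3 and 2) and integrins at 3 of 19 (3 and 1). In replicate 2 integrins were not above the 5.33% of all genes, and held 7.09 regions per Mb against 8.60 over all genes. Of the genes with an open promoter in these 4 lists, 25%, 26.3%, 21.4% and 17.65% had a region. By that measure the MHC class II list, also at 25%, stood no higher than innate sensors. Ribosomal protein genes, all 35 of which had an open promoter, had one at 5 (14.3%), close to the 13% of all genes with open promoters.

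Genes of other lineages were mostly close to the 9.45% of all genes in the conservative list. A region was nearest to 2 of 19 B-cell, 3 of 21 T-cell, 2 of 17 NK-cell, 2 of 19 erythroid and platelet, 2 of 22 hepatocyte and 2 of 21 neuron genes. Most of these genes had no open promoter, and of all genes without one only 6.23% had a region. Against that lower share stood 1 of 13 B-cell, 2 of 17 T-cell and 1 of 14 NK-cell genes without an open promoter. The other lists had 2 of 17 erythroid and platelet, 1 of 21 hepatocyte and 2 of 19 neuron genes. In the looser replicated list of the series, where 16.6% of all genes had a region, the counts were 7 of 17 NK-cell, 5 of 19 B-cell, 5 of 21 T-cell and 4 of 19 erythroid and platelet genes. Counting every gene with a start within 10 kb of a region also gave 5 of 19 B-cell genes, against 11.2% of all genes. How near these lists stood to the background thus depended on the peak list, on how genes were assigned and on the background used. Neither replicate's thresholded list held one at an erythroid or platelet gene. A single region there could be strong, as the one 8.92 kb upstream of Cd5, a lymphocyte surface receptor, with folds of 9.60 and 11.5. Neutrophil genes had a region at 5 of 20 (3 and 2 in the replicates), although only 1 of the 20 had an open promoter. The 5 were Elane, Mpo, Ltf, Csf3r and Cebpe, and all were among the 19 without an open promoter. Cebpe is also in the list of myeloid transcription factors. Csf3r had 2 regions, the stronger with a fold of 7.49 in the conservative list. Beside Ltf, which encodes the granule protein lactoferrin, the region at 7.62 kb had folds of 6.98 and 8.51. Elane and Mpo, which encode granule enzymes made in early myeloid cells, had weaker regions, with folds of 4.57 and 4.19 in the conservative list. None of the 5 defining neutrophil markers had an open promoter in either replicate's looser list.

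**Figure D4:**
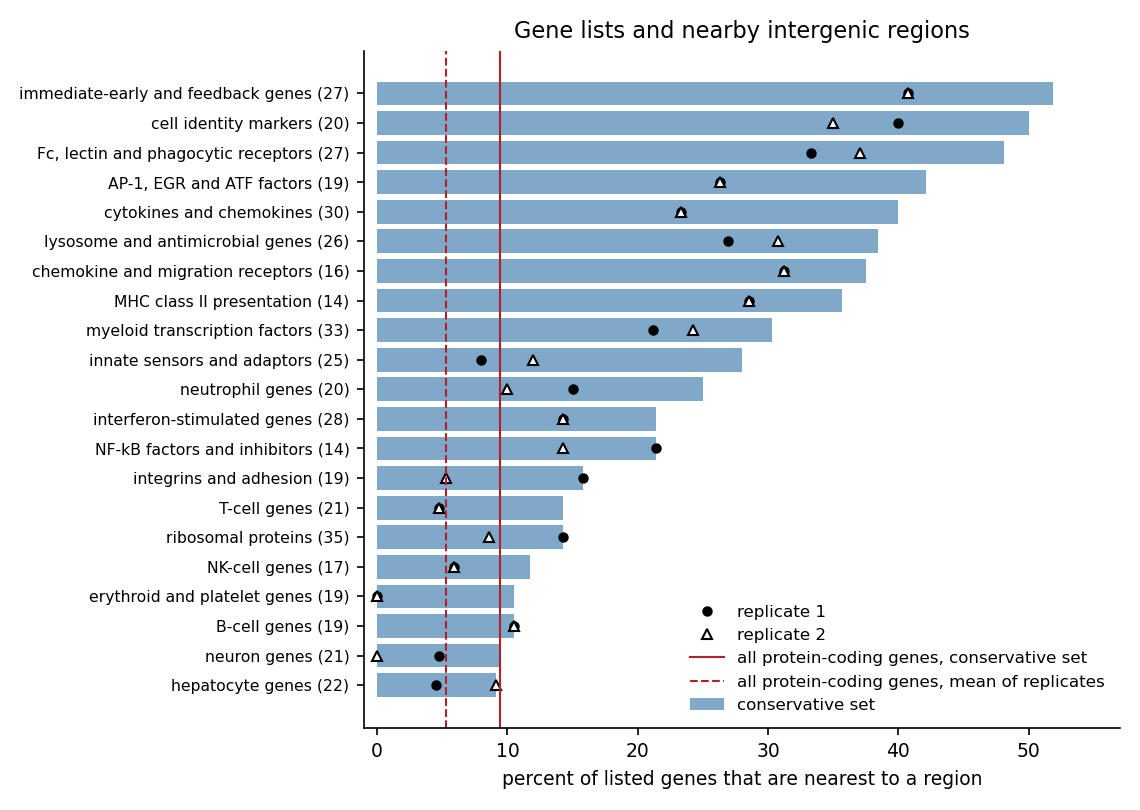
Percent of the genes of each list, with its number of genes in brackets, that are the nearest gene of at least 1 intergenic region near a start. Bars are the conservative list and points the thresholded lists of the replicates; the solid line marks all genes at 9.45% in the conservative list and the dashed line the mean of the replicates over all genes. Immediate-early genes stand at 51.9% and hepatocyte genes at 9.09%.

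Among 48 genes chosen for their role in monocytes, 26 had 46 regions in all, and 22 had none. The replicate folds of the region with the highest fold in the conservative list, a choice that favours the region, were compared with those of the gene's promoter. The region was above the promoter in both replicates at 8 of the 26 genes, against 18.1% of all genes with a region. It was below the promoter in both at 8, against 32.7%, and neither replicate had a promoter peak at 3, against 25.2%. The other 7 differed between replicates or lacked a call.

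Of the cytokines and chemokines, Il1b had the strongest region of the 48 genes. Its region at -2.36 kb (chr2:129373103-129373973) had folds of 9.78 and 9.05, and the one at -9.26 kb had 5.90 and 6.43. Il1b had no promoter peak in either replicate, although the nearer region overlaps the start of a long noncoding RNA. Cxcl2, a neutrophil attractant, had a region at 5.30 kb with a fold of 8.45 in replicate 2 and none in replicate 1, and a second at -6.24 kb with 5.82 and 4.68. Ccl6 and Ccl9, chemokine genes that neighbour each other on chromosome 11, had 2 and 3 regions. The strongest at Ccl6 had folds of 6.27 and 5.34 and the strongest at Ccl9 5.52 in both replicates, each below its promoter.

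Of the receptors and surface markers, Csf1r stood out. It encodes the receptor for CSF1, the growth factor on which monocytes depend. The region at -6.43 kb had folds of 8.72 and 8.04, while the promoter had 3.79 and 3.22, so the region was above the promoter by more than the replicates differed. Cx3cr1, the fractalkine receptor gene of patrolling monocytes, showed the opposite order, with 5.15 and 4.28 at -3.47 kb and 5.47 and 5.35 at the promoter. Fcgr3, an Fc receptor gene, had a region at -7.00 kb with 2.96 in each replicate, below its promoter at 4.72 and 4.37, and a second that neither replicate held. The nearest curated RefSeq mRNA start lay 12263 bp from the region at -7.00 kb, and the nearest RefSeq mRNA start of any kind 5751 bp.

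Among transcription factors, Cebpb had a region at 9.18 kb with folds of 6.10 and 5.07, above its promoter at 3.46 and 3.40. Nr4a1, needed for patrolling monocytes, had 3, and the strongest, at -7.88 kb, had 5.67 and 4.92 against 3.72 and 3.52 at the promoter. That distance is from the nearest start in the GENCODE gene models used here. The nearest curated RefSeq mRNA start lay 19684 bp from that region, and 18532 and 13864 bp from the others. With predicted RefSeq starts counted too, these gaps were 6740, 5588 and 920 bp. Irf1, an interferon response factor, had 6.36 and 7.19 at -6.22 kb, where the promoter had 5.97 and 6.41. Fos, an AP-1 subunit, had 7.24 and 6.15 at -5.04 kb, above its promoter at 4.54 and 4.85. Junb, its partner, had 2.80 and 2.43 at -4.16 kb, below its promoter at 3.60 and 3.57. Klf2 had a pair of regions, at -1.21 kb with 4.5 and 3.40 and at 3.63 kb with 3.8 and 3.92, close to its promoter at 4.40 and 4.39. Id2, an inhibitor of E proteins, had 4.24 and 4.20 at 3.66 kb, below 6.79 and 7.09 at its promoter.

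Immediate-early and feedback genes were mixed. Ier5 had 7.93 and 8.16 at 8.14 kb, level with its promoter at 8.55 and 7.88. Ier2 had 4 weak regions with replicate folds between 2.90 and 4.56. Zfp36, whose protein destabilises cytokine mRNAs, had 3.16 and 3.17 at -2.90 kb, above its promoter at 2.44 and 2.54. Mcl1, a survival factor of myeloid cells, had 3 regions with replicate folds from 3.05 to 4.595. Socs3, which restrains IL-6 signalling, had 6.28 and 4.37 at -7.10 kb, a wide gap between replicates, and 4.90 and 5.54 at 5.59 kb. Nfkbia had 3.86 and 4.51 at 3.81 kb, above its promoter at 3.08 and 3.25. Zfp36l2, a relative of Zfp36, had 3.99 and 4.06 at 6.94 kb, level with its promoter at 4.23 and 3.89. Ier3 had 4.14 and 4.41 at -8.35 kb and no promoter peak in either replicate.

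Among lysosomal and antimicrobial genes, Lyz1 had a region at -9.03 kb with 6.51 and 5.65 and no promoter peak. Lyz2, the lysozyme gene of monocytes and macrophages, had 4.5 and 4.72 at -2.79 kb, below its promoter at 6.18 and 7.19. Hmox1 had 3 regions with replicate folds from 4.04 to 5.76. The 22 genes with no region include Spi1, Irf8, Ccr2, Ly6c2, Cd14, Itgam, Klf4, S100a8 and S100a9, and 19 of the 22 had an open promoter. Irf8 had no intergenic sequence in the window and Tnf had 1.22 kb, so a region was hardly possible there. Spi1 had 4.99 kb and Ccl3 5.97 kb, less than the 9 kb that is the median over all genes. The others had at least that median, with 14.4 kb at Klf4 and 9.03 kb at Ccr2.

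**Figure D5:**
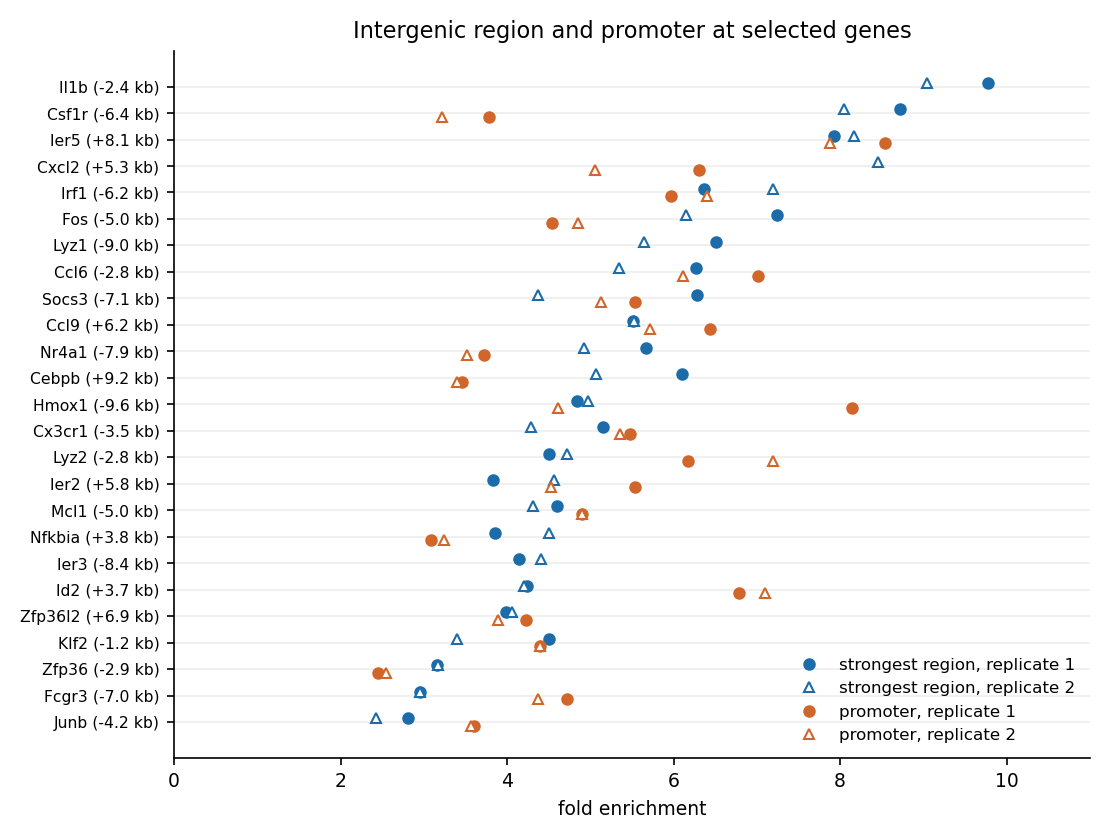
Fold enrichment of the strongest intergenic region (blue) and of the promoter (orange) at selected genes with a region, in replicate 1 (circles) and replicate 2 (triangles), with the distance of the region from the start in brackets. At Csf1r both blue points, 8.72 and 8.04, lie above the orange points, 3.79 and 3.22. A missing point means no call in that replicate.

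The genes with most regions were not limited to immune genes. Of the 46 genes with at least 3 regions and at least 1 in each replicate, 8 had 4. H2-D1, a classical MHC class I gene, had 4, of which the one at 8.91 kb had folds of 6.84 and 6.67. At Arhgap25, which encodes a GTPase activating protein of blood cells, the 4 regions reached 8.03 and 7.49. The 4 regions at Ctss had replicate folds between 3.90 and 5.58, and its promoter, absent from the conservative list, had 3.87 and 3.01. Ahnak, Prss30, Shf and Krt80 had 4 as well, and at Krt80, a keratin gene, none was above 4.56 in either replicate. Some regions had company: 358 (15.3%) lay within 2 kb of another one and 716 (30.6%) within 10 kb. The same shares for other classes of region are not given here.

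The 10 strongest regions by rank in both replicates had mean folds from 12.5 to 14.4. All 10 were in both thresholded lists, and 4 had an open promoter nearest. The leading one, 9.99 kb upstream of Aacs, had folds of 13.7 and 14, the one 4.93 kb upstream of Slfn14 had 15.3 and 13.6, and the one 3.31 kb past the start of the interferon gene Ifna13 had 13.3 and 13.9. Others lay near Efcab5, Btbd10, Trp53rkb, Tmem167b and Cpeb4, and 2 near genes that have only clone names. Btbd10 had 13.6 and 12.1, and Tmem167b 12.6 in both. For 5 of the 10, a start of a long noncoding RNA or of a RefSeq mRNA lay within 1 kb. The region at Cpeb4, 1.40 kb upstream of its nearest GENCODE start, overlaps a RefSeq start of the same gene.

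Annotation outside the rule covered a minority of the regions. A long noncoding RNA start lay within 1 kb of 152 (6.5%), a RefSeq mRNA start within 1 kb of 107 (4.58%), of which 20 were curated, and none of these or any other annotated start of a protein-coding gene lay within 1 kb of 2083 (89.1%). RefSeq functional elements, which record experimentally studied DNA, overlapped 10 regions, and the genes beside them were singled out after their values were seen. The share of all open regions that they overlapped is not given here. The 3 regions upstream of Mcl1 fall in a stretch that RefSeq lists as targeted by CRISPR interference. VISTA enhancers, which were tested in mouse embryos, overlapped 2 regions at Gng2 and 1 each at Zfp36l2 and Epb41, among others. A region at Myc overlaps a recorded DNase I hypersensitive site, with folds of 3.55 and 3.84. The distal enhancer of Adipoq, the gene of the fat cell hormone adiponectin, overlapped a region 2.00 kb upstream with folds of 7.70 and 8.88, and Adipoq had no promoter peak in either replicate.

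The limits of the rule cut through a continuous set. Just inside 10 kb were the regions of Arl8b, Cdh23 and Spry2, with summits 9991, 9992 and 9998 bp away and folds of 6.47, 6.56 and 7.91. Just outside were those of Kcnj8, Gpr151 and Nes, at 10001, 10005 and 10007 bp, with folds of 6.58, 5.65 and 7.64. At the inner limit the nearest regions were those of Nme8, Ssbp3 and Ppp1r9b, whose edges lay 1001, 1002 and 1002 bp from a start, with folds of 6.32, 5.67 and 5.72.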

How the data were processed

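ATAC-seq peak lists of 2 replicates on assembly mm10 were used. Per the deposited README, the authors made lists per replicate and from both replicates, with a further input it does not explain. Which aligner and caller were used is not given in the sources used here. A peak's fold enrichment (a linear ratio) and its −log10 p are the authors' deposited values and were not scaled between samples.

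Overlapping peaks were merged, keeping the highest fold and the summit with the smallest p. Genes came from GENCODE M21, where starts are those of protein-coding transcripts whose gene is protein-coding. Available sequence is intergenic sequence without unknown bases over 1 and up to 10 kb from the nearest start. An open promoter has a conservative region within 1 kb. Motif letters were searched on both strands; flanks lie 500 bp to each side. Repeat share is that of soft-masked sequence, with mostly repeat meaning over 50%.

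Members and gene lists were chosen with earlier results of these data known. Of the listed symbols, 13 were not among the annotated protein-coding genes of chromosomes 1 to 19. Genes named are 48 chosen ones, the 10 strongest regions by mean rank, those with most regions, 3 per list and those at the limits; a few of them are not reported here. Merging, classes and motif search were tested on simulated data. Alternatives were other lists, annotations, limits, windows and overlaps. The tools were Python 3.11.15 with pandas 2.3.3, numpy 2.4.6 and, for figures, matplotlib 3.10.9.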

Additional observations from a re-analysis of the deposited data

How the results depend on the processing

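In the looser replicated list there were 4585 regions of this kind, next to 16.6% of genes, 8.855% of them with PU.1 letters and a near-to-far density ratio of 0.925. Each replicate's list alone gave 1214 to 1215 regions, 6.87 to 7.04% of all regions, 83.6 to 84.8% upstream, a ratio of 0.926 to 0.941, 5.30 to 5.33% of genes, and PU.1 letters in 10.5 to 11.0%. With a limit of 5 kb there were 1047 regions, 3.75% of all, 90.3% upstream, at 4.71% of genes, and 10.3% with PU.1 letters. A limit of 2 kb gave 7.27% of all, 82.0% upstream and 8.26% of genes. Keeping long noncoding RNA genes out gave 7.15%, a ratio of 1.019 and 8.175% of genes. Using starts of every transcript gave 9.07%, 75.9% upstream, a ratio of 1.022 and 10.2% of genes. The other thresholded list gave a ratio of 1.015 and 9.13% of genes, and merging within 200 bp 9.42% of genes. RefSeq starts were added after seeing the data: curated ones gave a ratio of 1.009 and 9.36% of genes, all of them 7.99% of regions, a ratio of 0.920 and 9.04% of genes. Windows of 50 bp held PU.1 letters in 6.55%, against 0.685% of flanks. Regions in both replicates were 38.7% in thresholded lists and 82.6% where at least 50% had to be covered. The fold relative to promoters was 0.762 as the mean of the replicates, 0.814 in thresholded lists and 0.769 with means. Of 21 gene lists, 20 stood above the share of all genes, and 17 did in each replicate alone. The near-to-far ratio thus fell on either side of 1, and the counts follow the list, whose depth is unknown. No paired analysis was possible because there is 1 group.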
